A study of Mus musculus with 8 samples.

Results

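The fragments described here were short RNAs recovered with Argonaute from mouse brain that carried the name of a noncoding RNA other than a miRNA, a miRNA hairpin, a tRNA, an rRNA or an mRNA. They were chosen by annotation alone, without use of any level, and came to 513 of the 47204 distinct read sequences in the table. Argonaute complexes had been captured from lysates of cortex and hippocampus with a GW182 peptide, which binds Argonaute proteins, and the attached small RNAs were sequenced. Of the 8 libraries, 4 came from 5XFADtg mice heterozygous for Rubicon (het, Rubicon+/-) and 4 from 5XFADtg mice without Rubicon (ko, Rubicon-/-), each from a different animal. All 8 mice therefore carried the 5XFAD transgenes, a model of amyloid deposition in which neurons express mutant human APP and presenilin, and none was free of amyloid transgenes. The mice were female, 6 or 8 months old and of mixed C57BL/6J and SJL background. Rubicon restrains autophagy, and its loss cannot be checked from small RNA reads.

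Noncoding RNAs such as Y RNAs, the 7SL RNA of the signal recognition particle, spliceosomal snRNAs and snoRNAs are abundant structured RNAs with roles of their own in RNA quality control, protein targeting, splicing and RNA modification. Pieces of them can be found in Argonaute, where the bases at positions 2 to 7 of a guide, its 6mer seed, choose the mRNAs that are bound. The table also gives every sequence a 6mer seed viability score, averaged over 3 mouse lines that had received siRNAs with that seed, so that a low score marks a seed that was toxic to cells. The score comes from an earlier screen of seeds and was not measured in these mice.

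The 513 sequences were deposited under 68 RNA names in 3 classes, with 206 sequences tagged as piRNA, 170 as small nuclear or small nucleolar RNA and 137 as miscellaneous RNA. Because these classes are broad, each sequence was also matched to GENCODE M21 transcripts and to RefSeq miRNA hairpins, both on the mouse GRCm38 build. This placed 42 of the 68 names, and the remaining 26 matched no transcript. The fragments that carry most of the reads are shown first, 5′ to 3′, with the 6mer seed in capitals and with the positions in the parent RNA that each one covers, so that the shared ends and shifted starts can be seen.

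Y1 (Rny1) 84 to 107: tTCTCACtactgcacttgactagt
Y1 (Rny1) 84 to 104: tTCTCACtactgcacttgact
Y1 (Rny1) 84 to 110: tTCTCACtactgcacttgactagtctt
Y1 (Rny1) 83 to 104: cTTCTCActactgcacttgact
Y1 (Rny1) 83 to 107: cTTCTCActactgcacttgactagt
Y3 (Rny3) 74 to 97: cTCCCACtgcttcacttgaccagc
Y3 (Rny3) 79 to 101: aCTGCTTcacttgaccagccttt
7SL (Rn7s1) 281 to 300: aTAGCGAgaccccgtctctt
7SL (Rn7s1) 281 to 300, with an added A: aTAGCGAgaccccgtctctta
7SL (Rn7s1) 282 to 300: tAGCGAGaccccgtctctt
7SL (Rn7s1) 279 to 300: aCATAGCgagaccccgtctctt
U1 (Rnu1a1) 147 to 164: cGTTCGCgctctcccctg
U1 (Rnu1a1) 148 to 164: gTTCGCGctctcccctg
Snora41 108 to 129: gGAGGATtatgtgtgacagaca
Snora7a 115 to 137: tGATTGGaagacactctgcaaca
Unmatched name tagged as piRNA: cGACACAagggtttgt
Gm42418 1228 to 1244: cTGCGGAaggatcatta

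A shift of 1 base at the 5′ end replaces the seed. The 7SL and U1 lines share their last position, while the Y1 lines end at 104, 107 or 110 and the Y3 lines at 97 or 101. The Y1 and Y3 fragments share the stretch cacttgac. The lines for Y3, Snora7a and the 7SL starts at 279 and 282 were added after their values were seen, to show the starts described below.

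The libraries held from 509839 reads (het replicate 1) to 19878054 reads (ko replicate 2), as recovered from the values, a 39.0-fold range, and 28955 of the 38191202 reads in all were fragments of these noncoding RNAs. A count of 3 reads corresponded to between 0.151 and 5.79 CPM (reads per 1000000 reads of the library), so that low levels are known less well in the small libraries. Between 82 and 453 of the 513 sequences were seen in a library, 34 were seen in all 8, and 85 in only 1. A mean of at least 10 CPM was reached by 19 sequences, at least 1 CPM by 125, and 388 lay under 1 CPM. The summed level of 3 brain miRNAs (miR-124-3p, miR-9-5p and miR-128-3p) was 145125 to 189377 CPM in het and 145576 to 247446 CPM in ko libraries. The summed level of 8 miRNAs of epithelial and sensory cells (the miR-200 and miR-183 families), all of them detected, was 2567 to 9762 CPM in het and 203 to 1829 CPM in ko libraries, which did not overlap. Of 4 blood cell miRNAs 3 were detected, at a sum of 1801 to 2560 CPM in het and 858 to 2135 CPM in ko, and the liver miRNA miR-122-5p lay between 8.82 and 22.3 CPM. The part of these cells in the genotype values below was not tested.

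The fragments were a small part of the Argonaute-bound RNA. Their share of the reads was 0.0832% (95% Wilson interval 0.0756 to 0.0915), 0.0715% (0.0673 to 0.0760), 0.0598% (0.0569 to 0.0629) and 0.0995% (0.0958 to 0.103) in het replicates 1 to 4. In ko replicates 1 to 4 it was 0.0704% (0.0686 to 0.0723), 0.0730% (0.0718 to 0.0742), 0.106% (0.102 to 0.110) and 0.0862% (0.0807 to 0.0921). These intervals cover counting error only, since the reads carry no molecular identifiers, and the mice differed by more than that error. The means were 0.0785% ± 0.0169 in het and 0.0839% ± 0.0163 in ko (SD, n = 4 each), and the difference was within the spread between mice (exact two-sided permutation test over 70 assignments, p = 0.657). For scale, miRNA reads made up 96.7% of the libraries on average, tRNA reads 0.560% and rRNA reads 0.0888%.

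Y RNAs and 7SL RNA supplied most of these reads. The Y RNAs, small RNAs bound by the Ro60 protein, gave 129 sequences and 41.9% of the fragments' mean CPM. 7SL RNA, the scaffold of the signal recognition particle that directs secreted proteins to the endoplasmic reticulum, gave 78 sequences and 25.3%, and both are transcribed by RNA polymerase III. Spliceosomal snRNAs followed with 82 sequences and 9.50%, and H/ACA box snoRNAs and scaRNAs, which guide the conversion of uridine to pseudouridine, with 88 sequences and 9.37%. Names without a transcript match gave 58 sequences and 8.20%, names whose reads mostly matched a miRNA hairpin with up to 2 substitutions gave 50 and 2.74%, and Gm42418 gave 5 and 1.85%. C/D box snoRNAs, which guide 2′-O-methylation of RNA, gave only 14 sequences and 0.687%, the dendritic RNA BC1 gave 6 and 0.369%, and the vault RNA Vaultrc5 gave 2 and 0.0687%.

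Most of the level tagged as piRNA matched another kind of RNA. The 206 sequences with that tag had a summed mean of 317 CPM, of which 64.3% matched the 7SL genes, 6.65% matched miRNA hairpins, 4.70% matched Gm42418 and 3.07% matched snRNAs. A further 20.6%, in 25 names, matched no transcript, and whether these are piRNAs was not tested. All 78 sequences of 7SL RNA carried this tag. Gm42418 is annotated as a lincRNA at chr17:39846958-39848788, overlaps an annotated rRNA gene on the opposite strand, and is named Rn18s-rs5, a pseudogene, by RefSeq. Whether its reads come from rRNA was not tested.

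By mean level Y1 was the largest source, although the main 7SL name was higher in het replicate 1 and ko replicate 4. The Y1 gene Rny1 lies at chr6:47788069-47788180 on the minus strand and is 112 bases long, and its reads also match the copy Gm24372. The 69 Y1 sequences summed to 203, 248, 208 and 323 CPM in het replicates 1 to 4 and to 310, 299, 373 and 168 CPM in ko replicates 1 to 4. The lowest and the highest library were both ko, so the groups overlapped fully. Means were 245 ± 55.6 CPM for het and 287 ± 86.1 CPM for ko (SD, n = 4), a log2 difference of 0.19 (SE 0.30, limma adjusted p = 0.982 over 700 RNAs).

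Nearly all Y1 reads came from its 3′ strand and began at either of 2 neighbouring bases. Starts at position 84 made up 65.8% ± 3.93 of the placed Y1 reads (SD, n = 8, range 60.0% to 72.8%), with seed UCUCAC and a seed viability of 50.5. Starts at position 83 made up 29.8% ± 3.68 (range 24.3% to 35.2%), with seed UUCUCA and a viability of 70.3. The order of the 2 starts was the same in all 8 libraries, and the next start, position 85, held 1.70%. The 3′ ends were more varied, with 33.3% of the reads ending at position 107, 24.3% at 104, 14.1% at 106 and 12.3% at 110. Here and below an end is the last base that matches the gene, so added bases beyond it are not counted. UCUCAC was the seed with the highest mean among all 513 sequences, at 175 CPM and 21.8% of their level. In ko replicate 4 it was below the 7SL seed UAGCGA, with 107 against 226 CPM. Reads named miR-342-3p with UCUCAC at positions 2 to 7 came to 5.53 CPM, but the RefSeq mature miR-342-3p has these bases at positions 1 to 6, so that its own seed is CUCACA.

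The single sequence with the highest mean level was the 24-base Y1 fragment of positions 84 to 107. It measured 32.8, 76.3, 69.1 and 111 CPM in het replicates 1 to 4 and 77.4, 104, 89.4 and 35.3 CPM in ko replicates 1 to 4. No order by genotype was seen, and the lowest values were in the het and ko libraries with the fewest reads. The 22-base fragment of positions 83 to 104 measured 32.8, 35.1, 23.7 and 39.8 CPM in het and 51.7, 47.8, 59.3 and 44.1 CPM in ko. Every ko library lay above every het library for this sequence, the only one of the 19 tested fragments without overlap (0.788% of all 3299 sequences tested were placed this way, and 2.21% the opposite way). With a log2 difference of 0.63 (SE 0.33) it missed the threshold (adjusted p = 0.973 in limma). The 21-base fragment of positions 84 to 104 had the smallest p of those that were higher in ko. It measured 1.93, 24.8, 12.04 and 15.8 CPM in het and 26.0, 23.05, 25.4 and 24.5 CPM in ko, a log2 difference of 1.18 (SE 0.57, limma adjusted p = 0.941). Its het range is set by het replicate 1, where 1 read was found. The longer fragment of positions 83 to 107 lay the other way, with 13.8 ± 5.30 CPM for het and 9.74 ± 5.26 CPM for ko (SD, n = 4), overlapping groups, a log2 difference of -0.55 (SE 0.54) and an adjusted p of 0.973 in limma.

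Y3 came from Rny3 at chr6:47781624-47781725 on the plus strand, 102 bases long, and gave 60 sequences. It measured 98.5, 61.2, 37.3 and 89.4 CPM in het replicates 1 to 4 and 61.6, 57.1, 116 and 46.1 CPM in ko replicates 1 to 4. The lowest library was het and the highest ko, and the groups overlapped, with means of 71.6 ± 27.8 and 70.3 ± 31.5 CPM (SD, n = 4) and a log2 difference of -0.02 (SE 0.39, limma adjusted p = 0.995). Unlike Y1, its starts were spread over a wider stretch. Position 74 (seed UCCCAC, viability 65.9) held 42.3% ± 17.1 of its placed reads, position 79 (CUGCUU, 81.1) 24.8% ± 10.3 and position 75 (CCCACU, 81.2) 19.5% ± 8.22 (SD, n = 8). In ko replicate 4, position 74 held 80.8% and position 79 2.13%, outside the other 7 libraries. That 2.13% was 0.980 CPM, the level of 1 read in this library. The 5′ strand of the Y RNAs was close to empty, since reads starting in the first 10 bases made up 0.343% of the Y RNA reads and reads ending in the last 10 bases 99.1%.

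7SL reads came from the very end of the RNA. The 2 genes Rn7s1 (chr12:69159295-69159594, plus strand) and Rn7s2 (chr12:69361182-69361481, minus strand) have the same 3′ end, so their reads cannot be told apart. The annotation also places the miRNA genes Gm47295 and Gm47299 over these ends. The main 7SL name, with 71 sequences, measured 236, 194, 139 and 198 CPM in het replicates 1 to 4 and 118, 151, 207 and 364 CPM in ko replicates 1 to 4. Both the lowest and the highest library were ko, and the log2 difference was 0.02 (SE 0.35, limma adjusted p = 0.995). Of the placed 7SL reads 98.8% ended in the last 10 of 300 bases, and none started in the first 10. Ends of the match at position 300 held 76.0% ± 4.49 of the reads and ends at 299 held 21.9% ± 4.28 (SD, n = 8). Added bases that differ from the annotated genes followed the match in 43.7% ± 10.7 of the placed 7SL reads.

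The 4 neighbouring 7SL starts gave seeds of very different score. Position 281 (UAGCGA, viability 87.1) held 56.2% ± 3.21 of the placed reads, position 282 (AGCGAG, 70.9) 23.7% ± 5.60, position 279 (CAUAGC, 8.2) 8.42% ± 2.80 and position 280 (AUAGCG, 91.1) 5.35% ± 1.75 (SD, n = 8). Reads with the low-scoring seed CAUAGC measured 7.72, 15.8, 14.0 and 11.6 CPM in het and 10.9, 18.5, 21.5 and 31.4 CPM in ko. The main 7SL fragment, positions 281 to 300, measured 40.5, 35.8, 20.6 and 26.7 CPM in het replicates 1 to 4 and 32.1, 29.6, 31.4 and 65.6 CPM in ko replicates 1 to 4. Only ko replicate 4 stood above the het range, and the log2 difference was 0.31 (SE 0.39, limma adjusted p = 0.973). The shorter fragment of positions 281 to 299 averaged 7.35 ± 4.78 CPM for het and 15.3 ± 9.17 CPM for ko (SD, n = 4), with overlapping groups and a log2 difference of 0.94 (SE 0.62, limma adjusted p = 0.973).

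An added A that is not in the annotated genes marked the 7SL fragments. Such reads, in 41 sequences, made up 39.3%, 37.2%, 46.5% and 61.0% of the placed 7SL reads in het replicates 1 to 4 and 26.3%, 32.8%, 49.0% and 45.8% in ko replicates 1 to 4. The genotypes overlapped. For Y1, reads whose first base beyond the match was an A made up 5.59% (range 1.18% to 15.2%), for Y3 15.4% (range 7.87% to 20.8%), and for U1 3.46% (range 0 to 12.3%). The 7SL share was above the Y1 share and the Y3 share in every library. For Snora41 the added base was mostly T, in 5.92% of its reads, against 0.382% with A. An added T after the run of T that ends 7SL or a Y RNA often cannot be told from the gene, so T is not compared for them. These shares were set side by side after they had been seen, and no test was made.

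The 7SL to Y RNA ratio ranged from 0.321 to 0.782 in 7 libraries and was 1.75 in ko replicate 4, the only library with more 7SL than Y RNA reads (382 against 218 reads). The same library had the highest share of tRNA reads, 1.10% against 0.379% to 0.706% in the others, and the highest sum of the brain miRNAs.

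U1, the snRNA that pairs with the 5′ splice site, was the main snRNA source. Its reads match 16 genes alike, among them Rnu1a1 at chr11:87422867-87423030 on the plus strand, within an intron of Tex14. The main U1 name measured 46.3, 28.9, 48.5 and 78.1 CPM in het replicates 1 to 4 and 50.8, 21.1, 67.9 and 76.4 CPM in ko replicates 1 to 4. The groups overlapped, with a log2 difference of 0.04 (SE 0.44, limma adjusted p = 0.995). Ends at the last base, position 164, held 69.9% ± 5.44 of the placed U1 reads (SD, n = 8). Starts were spread, with position 147 (GUUCGC, viability 57.4) at 24.7%, position 148 (UUCGCG, 80.6) at 18.3% and position 144 (UGCGUU, 57.0) at 12.6%. The 2 leading fragments, 18 and 17 bases long, were shorter than the 19 to 35 nt cut from the gel and lay at 12.5 ± 6.30 and 10.8 ± 6.42 CPM (SD, n = 8).

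Other spliceosomal RNAs averaged under 10 CPM. U4, annotated as Gm24265 and Gm24407 on chromosome 5, averaged 6.61 CPM with 25.2 CPM in het replicate 4 and 0.688 to 14.2 CPM elsewhere. U2 (Rnu2-10 and copies) averaged 4.87 CPM and U12 (Rnu12), the counterpart of U2 in the minor spliceosome, 4.84 CPM, and both had been deposited as piRNA. U2 measured 1.93, 0.688, 1.17 and 3.004 CPM in het replicates 1 to 4 and 6.49, 8.94, 9.88 and 6.86 CPM in ko replicates 1 to 4. Every ko library lay above every het library, at a level under the 10 CPM set for the test and in 7 sequences. The main U12 name, with 9 sequences, was placed the same way, with 1.93, 0.688, 2.33 and 2.63 CPM in het replicates 1 to 4 and 6.62, 3.46, 12.03 and 3.92 CPM in ko replicates 1 to 4. These were the 2 parents placed so among 30 with a mean of at least 1 CPM, against 0.833% of all 1801 RNAs at that floor, while 0 were placed the opposite way, against 2.22%. They were singled out after their values were seen. In a limma fit from 1 CPM the log2 difference was 1.80 (SE 0.68, adjusted p = 0.641) for U2 and 1.30 (SE 0.71, adjusted p = 0.775) for U12. In that fit 0 of the 30 parents passed, against 0.333% of all RNAs, and 3 had an unadjusted p under 0.05, against 5.89%. U5 and U6 gave 1 sequence each, at 0.483 and 0.280 CPM. Across all snRNAs, 74.1% of the placed reads ended within 10 bases of the 3′ end.

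Among the snoRNAs, Snora41 stood out by its seed. This H/ACA snoRNA lies in an intron of Eef1b2 at chr1:63179004-63179135 on the plus strand. Its 15 sequences measured 38.6, 24.1, 22.9 and 52.6 CPM in het replicates 1 to 4 and 30.5, 36.3, 64.0 and 7.84 CPM in ko replicates 1 to 4. The ko group held both extremes, and the log2 difference was -0.23 (SE 0.55, limma adjusted p = 0.982), with the opposite sign on recovered reads (0.12 in edgeR). Starts at position 108 held 96.6% ± 4.52 of its reads (SD, n = 8), so that the seed was almost always GAGGAU, with a viability of 27.6. With a mean of 33.6 CPM this was the low-scoring seed with the highest level among the fragments, although CAUAGC of 7SL was higher in ko replicate 4. The fragments ended mostly at positions 128 and 129 of 132, where H/ACA snoRNAs carry their ACA box. The 22-base form averaged 16.5 ± 4.43 CPM for het and 12.1 ± 9.69 CPM for ko (SD, n = 4), a log2 difference of -0.87 (SE 0.68, limma adjusted p = 0.973), and the ko spread included 0.980 CPM in ko replicate 4. Without that library the log2 difference was -0.13.

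Snora7a, a second H/ACA snoRNA that overlaps an exon of Rpl32 (chr6:115807975-115808114, minus strand), had the smallest p of all 9 parent RNAs tested. It measured 5.79, 2.75, 25.2 and 22.5 CPM in het replicates 1 to 4 and 13.2, 16.4, 28.8 and 26.5 CPM in ko replicates 1 to 4. The lower ko values fell between the low and the high het values, and with a log2 difference of 0.92 (SE 0.65) it missed the threshold (adjusted p = 0.889 in limma). Its reads came from both stem ends, with 64.3% starting at position 115 (GAUUGG, viability 42.9) and 25.5% at position 72 (AGCAGA, 67.2).

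Snora36b, which also holds the miRNA gene Mir664, averaged 8.99 ± 7.73 CPM, and Snora30 and Snora44 averaged 5.92 and 2.87 CPM. Mir1839, annotated as a scaRNA, averaged 1.37 CPM. U3 (Rnu3b1 and copies), a C/D box snoRNA needed for cleavage of the rRNA precursor, was the main C/D source at 4.95 ± 2.14 CPM (SD, n = 8). Snord69 was seen in het replicate 3 alone, at 3.49 CPM. BC1, a rodent RNA of neuronal dendrites transcribed from chr7:144914470-144914637, was seen in 6 of 8 libraries at up to 8.26 CPM, and its fragments lay between positions 125 and 154 of 168.

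Of 40 gene names and name groups on a list of noncoding RNAs, 14 had fragments. None came from the imprinted brain C/D snoRNAs (Snord115, Snord116, Snord113, Snord114, Snord64 and Snord107), from 7SK, from the RNase P, RNase MRP and telomerase RNAs, from U7, U11, U4atac or U6atac, from Snord44, Snord78, Snord100 or Scarna15 under those symbols, or from the lncRNAs Meg3, Rian, Mirg, Malat1, Neat1, Gas5 and the Snhg family by name. Snora44 and the C/D snoRNA gene Gm24452, both with fragments, overlap exons of Snhg12 and Snhg1 on the same strand. Every sequence in the table had at least 8 reads over the libraries, so that rarer fragments of these RNAs would not appear.

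The unmatched name with the most reads, tagged as piRNA, gave 16 sequences around cGACACAagggtttgt. The RNA that it comes from was not identified, and whether it is a piece of rRNA was not tested. This name measured 19.3, 83.2, 41.5 and 51.8 CPM in het replicates 1 to 4 and 22.0, 52.5, 46.0 and 25.5 CPM in ko replicates 1 to 4. The groups overlapped, with a log2 difference of -0.33 (SE 0.46, limma adjusted p = 0.982). Its leading sequence averaged 19.5 ± 11.998 CPM for het and 11.7 ± 5.79 CPM for ko (SD, n = 4), a log2 difference of -0.63 (SE 0.51, limma adjusted p = 0.973). Gm42418 fragments, of 15 to 19 bases and all ending at position 1244, measured 28.96, 4.13, 9.32 and 24.8 CPM in het and 2.80, 4.62, 21.9 and 22.5 CPM in ko, a log2 difference of -0.46 (SE 0.79, limma adjusted p = 0.982). The name closest to Mir744 held variants of that miRNA, most with 1 substitution, and averaged 12.5 ± 6.51 CPM for het and 12.8 ± 3.38 CPM for ko (SD, n = 4), a log2 difference of 0.14 (SE 0.54, limma adjusted p = 0.982). The names closest to Mir376b and Mir532 averaged 2.87 and 2.50 CPM. The next 2 unmatched names had few libraries with reads, one with 21.2 and 6.19 CPM in het replicates 1 and 2 and none elsewhere, the other with 19.3 CPM in het replicate 1 and up to 2.94 CPM in ko libraries.

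No fragment and no parent RNA passed the genotype test. With limma on log2(CPM + 1), 19 fragments averaged 10 CPM or more and could be tested, and 0 of them reached an adjusted p under 0.05. Of all 3299 sequences tested 0.485% did, 16 sequences that were all lower in ko. Without adjustment, 0 of 19 fragments and 5.30% of all sequences had p under 0.05. Of the 9 parent RNAs tested, 0 were called, against 0.571% of all 700 RNAs, and 0 had an unadjusted p under 0.05, against 49 of all RNAs, or 7%. None of the 9 parents had groups without overlap, where 0.286% of all RNAs were higher and 2.86% lower in every ko library. On the recovered reads, edgeR called 0 of 19 fragments and 0 of 9 parents with none under an unadjusted 0.05, and DESeq2 called 0 of both with 1 fragment under an unadjusted 0.05. The median log2 difference was -0.08 over the 19 fragments and -0.02 over all sequences tested, and 0.02 over the 9 parents and -0.08 over all RNAs tested. The sign of the median over the fragments was not stable, with 0.11 in edgeR, 0.12 in DESeq2 and 0.42 without the 2 largest libraries.

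No class passed the test between genotypes either. Y RNAs averaged 317 ± 69.7 CPM for het and 358 ± 113 CPM for ko, 7SL RNA at 193 ± 39.9 and 214 ± 113, snRNAs at 69.7 ± 40.7 and 83.3 ± 35.6, and H/ACA snoRNAs and scaRNAs at 68.3 ± 22.8 and 82.7 ± 16.7 (SD, n = 4 each). Adjusted p-values of the exact two-sided permutation test were 0.914 to 0.971 over the 12 classes, 9 from sequence matches and 3 as deposited. The lowest unadjusted p, 0.114, belonged to names without a match, whose means were 82.0 ± 22.0 CPM for het and 50.1 ± 16.7 CPM for ko. Leaving out het replicate 3, its lowest het library, gave a difference of -41.0 CPM with an unadjusted exact permutation p of 0.0286. Among sequences of 19 to 25 nt alone the difference shrank to -6.06 CPM (unadjusted exact permutation p = 0.714). In het replicate 1, much of the 98.5 CPM of unmatched names lay in names at 21.2, 21.2, 19.3 and 17.4 CPM. These names reached at most 6.19 CPM in any other library, and without het replicate 1 the difference was -26.4 CPM. With 4 mice per group, the smallest p that this test can give is 0.0286.

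The seeds of the fragments scored higher than those of the miRNA and rRNA reads in the same libraries. Weighted by CPM, the mean seed viability of the fragments was 61.9 ± 1.97 (SD, n = 8), against 56.4 ± 0.786 for miRNA reads and 56.0 ± 1.91 for rRNA reads. The fragments were higher in 8 of 8 libraries in both comparisons, by 5.48 (range 4.20 to 7.68) and by 5.87 (range 3.08 to 10.2), each with an adjusted p of 0.0141 in an exact two-sided sign-flip permutation test over 9 comparisons. Against tRNA reads, at 60.5 ± 0.997, the difference of 1.38 (range -1.78 to 6.22) did not pass (adjusted p = 0.264, same exact permutation test). Each library gives 1 difference here, and the fragments of a library share its few abundant parents.

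The score depended on the class. 7SL reads averaged 75.8 ± 1.77, Y RNA reads 59.9 ± 1.32, snRNA reads 59.4 ± 2.86 and H/ACA reads 42.9 ± 5.97 (SD, n = 8). Reads with a seed viability under 40 were 0.631% of Y RNA reads, 8.69% of 7SL reads and 54.6% of H/ACA reads, and 11.3% of all fragment reads. The H/ACA share ranged from 16.4% to 83.9% over the libraries. The Snora41 seed GAGGAU alone held 33.6 of the 75.5 CPM of that class. Among the 513 sequences, 112 had such a seed, in 48 of 201 distinct seeds, and the scores ran from 6.0 to 95.1. Only 4 seeds, from Y1 and 7SL, held more than 50% of the fragments' level, and 10 seeds held 68.1%. Of the 201 seeds, 120 were also found on miRNA reads, but among the 4 leading ones this held for UCUCAC alone.

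Fragments began with T, the base that Argonaute favours as U at the 5′ end of a guide, less often than miRNA or tRNA reads. T opened 40.1% ± 4.28 of the fragment reads, 74.0% ± 1.52 of the miRNA reads, 55.4% ± 2.61 of the tRNA reads and 39.4% ± 3.66 of the rRNA reads (SD, n = 8). The share was lower than in miRNA reads by 29.2 to 43.1 percentage points and lower than in tRNA reads by 11.3 to 20.1 percentage points, in 8 of 8 libraries each (adjusted p = 0.0141, exact two-sided sign-flip permutation test). When each detected sequence counted once instead of by its level, the difference from miRNA reads shrank to -1.53 percentage points and did not pass (unadjusted exact permutation p = 0.172). Against rRNA reads the difference was 0.656 percentage points (adjusted exact permutation p = 0.711). By class, T opened 58.7% of Y RNA reads, 24.8% of 7SL reads, where A opened 68.0%, and 25.6% of H/ACA reads, where G opened 46.7%.

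In mean length the fragments were close to the miRNA reads, but the fragments held a larger share of short reads. Their lengths ran from 15 to 29 nt, with a median of 21 nt over sequences and a mean of 21.5 ± 0.346 nt over reads, against 21.7 ± 0.0417 nt for miRNA, 21.3 ± 0.302 nt for rRNA and 20.3 ± 0.421 nt for tRNA reads (SD, n = 8). They were longer than tRNA reads by 1.15 nt on average in 8 of 8 libraries (adjusted p = 0.0141, exact two-sided sign-flip permutation test), while the differences of -0.262 nt from miRNA reads (range -0.703 to 0.255) and 0.151 nt from rRNA reads (range -0.174 to 0.416) did not pass (adjusted exact permutation p = 0.141 for both). Counting each detected sequence once gave -0.698 and 0.243 nt, each with an unadjusted exact permutation p of 0.00781, and without ko replicate 1 the difference from miRNA reads was -0.336 nt (unadjusted exact permutation p = 0.0313). Reads of 19 to 23 nt made up 60.5% ± 6.73, reads of 24 to 29 nt 24.1% ± 5.54 and reads of 15 to 18 nt, below the size cut from the gel, 15.4% ± 3.82 (SD, n = 8). Among miRNA reads, those of 15 to 18 nt made up 0.322% ± 0.0206 (SD, n = 8). Y RNA fragments were the longest of the larger classes at 23.5 nt, 7SL fragments averaged 20.6 nt, and fragments of Gm42418 and of names without a match averaged 16.8 and 17.3 nt.

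None of the 5 measures tested between genotypes passed, and the shares of reads by length range were not among them. The mean score of the seeds came to 62.2 ± 1.35 for het and 61.6 ± 2.65 for ko, the share of reads with a seed viability under 40 was 11.4% ± 1.68 and 11.2% ± 1.35, and G made up 21.6% ± 2.95 and 20.5% ± 4.07 of seed bases (SD, n = 4 each). Fragments averaged 21.3 ± 0.251 nt for het and 21.6 ± 0.392 nt for ko, and T opened 40.2% ± 3.59 and 40.1% ± 5.46 of the reads. Without ko replicate 4 the difference in mean score, ko minus het, moved from -0.613 to -1.93 (unadjusted exact permutation p = 0.0857), and that in length from 0.305 to 0.490 nt (unadjusted exact permutation p = 0.0571). The adjusted p was 0.971 for all 5 measures (exact two-sided permutation test), and the groups overlapped in each.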

How the data were processed

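Argonaute-bound small RNAs of 8 mouse brains (4 het, 4 ko) were analysed from 1 table of the SPOROS pipeline, in which the authors trimmed reads (Trim Galore, per the submitters' processing notes, no version given), removed rare reads and compared the rest by BLAST with lists of small RNAs. RNA of 19 to 35 nt had been cut from a gel. The deposited values are CPM, scaled by the authors to 1000000 reads per library, so each is relative to the rest of its library. The deposited seed viability score is the authors' mean over 3 mouse cell lines. The genome build of the small RNA lists and the versions of the trimming and BLAST tools were not given in the sources used here. CPM were whole multiples of 1 read: 100% of 205432 values above 0 lay within 0.0006 CPM plus 1e-06 of the value from whole reads (for 3 values this margin is 0.5 read or more), and edgeR called 14 sequences and 4 RNAs on these recovered reads. Sequences without any RNA name (0.0835% of the reads) stayed in library totals.

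The fragments were the sequences with no miRNA name and a noncoding RNA name other than miRNA hairpin, tRNA, rRNA or mRNA. Kinds of read follow the deposited names, and whether fragments with other names are pieces of rRNA was not tested. Since the deposited names give 3 classes only, finer classes came from a sequence match (exact from base 1 for at least 15 bases, at most 3 added 3′ bases) to GENCODE M21 transcripts, or to RefSeq hairpins with at most 2 substitutions. Coordinates are from GRCm38 and belong to the matched genes. A gene named for a match may have identical copies. The fragments, gene lists and tests were chosen with earlier results of these data known. The items named were taken from the 10 sequences and RNAs with the highest mean, the 2 highest sequences of each class with a mean of at least 1 CPM, the 3 highest RNAs of each class, the 3 with the smallest p in each direction, and members of a list of known noncoding RNAs. Not every item of these is named. Snora30, Snora44, Mir1839, single starts and added bases were chosen after their values were seen.

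Library values were compared between genotypes by exact two-sided permutation of group labels, and between kinds of read by sign flips of within-library differences, with Benjamini-Hochberg adjustment. limma 3.58.1 (R 4.3.3, trend and robust) was fitted on log2(CPM + 1) of all sequences, and of all RNAs, with a mean of at least 10 CPM. edgeR 4.0.16 and DESeq2 1.42.0 were alternatives. Python 3.11.15, pandas 2.3.3, numpy 2.4.6 and scipy 1.17.1 were used, and the fits were tested on simulated data. Replicates are different mice, and replicate numbers were not used as pairs in the main tests.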

Additional observations from a re-analysis of the deposited data

Results flagged for a closer look

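In 92 groups of 4 libraries, 5 had 1 library whose gap to its nearest neighbour exceeded Dixon's critical value, and chance alone gives about 1 in 20. Of these, 3 were in ko replicate 4. BC1 RNA measured 7.84 CPM there against 0.430 to 1.65 CPM in the other ko libraries. The mean seed viability of the fragments was 65.5 against 59.9 to 60.6. The main 7SL fragment, aTAGCGAgaccccgtctctt, measured 65.6 CPM against 29.6 to 32.1 CPM. In het replicate 4, U4 (Gm24265) measured 25.2 CPM against 0.688 to 1.93 CPM in the other het libraries. In het replicate 2, the shorter 7SL fragment aTAGCGAgaccccgtctct measured 14.4 CPM against 4.13 to 5.79 CPM.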

How the results depend on the processing

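No fragment and no parent RNA passed the genotype test in any fit run, but the count over all sequences moved from 16 to 35 with a floor of 1 CPM, 5 with a floor of 100 CPM (where no fragment could be tested), 26 with the replicate block, 27 with DESeq2 and 9 without the 2 libraries of over 5000000 reads, and over all RNAs from 4 to 10 with the replicate block and 10 with DESeq2. With 1 library left out the counts were 9 (without het replicate 4) to 21 and 4 to 8 (without ko replicate 3). Same-numbered libraries did not stand out as pairs. Their correlations were -0.00554, 0.132, -0.127 and 0.149, and only het replicate 2 correlated best with its own number. Whether same-numbered libraries shared a batch was not tested. Beyond the counts above, the replicate block changed no call. The median log2 difference of the tested fragments ran from -0.26 (without ko replicate 3) to 0.12 (without ko replicate 2) with 1 library left out, and that of the tested parents from -0.12 to 0.14. Median centring moved the median log2 difference of all RNAs from -0.08 to 0.14. The 39.0-fold range in depth limits what the small libraries show. Differences between genotypes, as ko minus het and none past its threshold, often changed sign, and the cause was not tested. Without the 2 largest libraries they were 5.43 CPM for Gm42418 (log2 0.71), 1.04 CPM for BC1, 89.8 CPM for names deposited as piRNA, 0.705 for mean seed viability, 0.0841 percentage points for reads under 40 and 1.80 for G in seeds. With the sign kept they were 100.3 CPM for 7SL, 40.6 for snRNA, 51.4 for small nuclear and nucleolar RNA names, 0.0176 percentage points for the share of reads and 0.0507 nt for length. At 19 to 25 nt they were -6.06 CPM for names without a match, 0.01004 percentage points for the share of reads, 0.290 CPM for Gm42418, 34.2 CPM for piRNA names and -0.0412 nt for length. Without sequences matching a miRNA they were 0.120 percentage points for reads under 40 and 0.0261 for reads starting with T. BC1 gave 0.20 on the log2 scale, and unweighted sequences gave 2.18 percentage points for seeds under 40 and 0.649 for G in seeds. Snora41 had a log2 difference of 0.12 with edgeR and 0.11 with DESeq2. Between kinds of read, unweighted sequences gave -0.698 nt against miRNA, 0.243 nt against rRNA, -1.53 percentage points starting with T against miRNA and -0.265 in seed viability against tRNA. Leaving out 1 library in turn gave -0.00197 to 0.0124 percentage points for the share of reads, -3.30 to 88.5 CPM for Y RNA, -31.9 to 53.1 for 7SL, -0.225 to 32.7 for snRNA, -41.0 to -25.5 for names without a match, -0.0143 to 5.85 for miRNA with substitutions, -8.05 to 0.225 for Gm42418 and -1.92 to 1.47 for BC1. It gave -2.55 to 86.9 CPM for names deposited as miscellaneous RNA, -52.9 to 38.4 for piRNA and -1.48 to 49.5 for small nuclear and nucleolar RNA. It gave -0.845 to 0.382 percentage points for reads under 40, -2.95 to 0.305 for G in seeds and -1.46 to 2.53 for reads starting with T, with -0.245 to 2.11 against rRNA reads and -0.336 to -0.199 nt for length against miRNA reads. Log2 differences ran from -0.62 to 0.34 for Snora41, -0.95 to 0.025 for Gm42418 and -0.11 to 0.37 for Mir744. Other differences kept their sign but moved, from 6.28 to 25.02 CPM for H/ACA snoRNAs (highest without het replicate 4) and from -1.93 (without ko replicate 4) to -0.0602 for mean seed viability, and from 0.185 (without ko replicate 1) to 0.490 nt (without ko replicate 4) for length. Log2 differences ran from 0.39 (without het replicate 2) to 1.33 for Snora7a, 0.05 to 0.43 for Y1, -0.71 to -0.02 (without het replicate 2) for the unmatched name and -0.95 to -0.28 for its leading sequence. They ran from 0.53 (without het replicate 1) to 1.58 for the Y1 fragment of positions 84 to 104, -0.80 to -0.22 for that of 83 to 107, 0.62 to 1.28 for the 7SL fragment of 281 to 299 and -1.33 to -0.13 for the 22-base Snora41 fragment.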

Other observations

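Fragments of 15 to 18 nt, shorter than the RNA cut from the gel, made up 20.5%, 17.4%, 17.7% and 19.1% of the fragment reads in het replicates 1 to 4 and 9.60%, 11.96%, 13.7% and 13.2% in ko replicates 1 to 4. The groups did not overlap. This was noticed after the values were seen and was not tested. Among miRNA reads the same lengths made up 0.290% to 0.355% in het and 0.304% to 0.331% in ko, among rRNA reads 9.14% to 17.8% and 5.45% to 11.95%, and among tRNA reads 23.2% to 26.5% and 21.2% to 41.3%, all with overlap. Fragment reads of 19 to 23 nt made up 52.2% to 59.57% in het and 59.66% to 75.1% in ko, without overlap. Those of 24 to 29 nt overlapped, and neither range was tested.

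Snora36b, whose reads also match Mir664, had no read in het replicate 1 and reached 24.5 CPM in ko replicate 4. Altogether 20 of the 513 sequences, at 11.3 CPM, lay within a miRNA hairpin or held a mature miRNA without substitution.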
